A study of Mus musculus with 16 samples.

Results

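The genes described here are 10 core genes of the circadian clock, *Arntl* (which encodes BMAL1), *Clock*, *Per1*, *Per2*, *Per3*, *Cry1*, *Cry2*, *Nr1d1*, *Nr1d2* and *Dbp*. They were taken by symbol, with earlier results of these data known. All 10 are among the 30386 genes of the deposited table, each in a single row, and all 10 passed the filter on low values that left 12533 genes for testing. They were compared between neural stem/progenitor cells (NSPCs) carrying a *Dbx2* transgene and NSPCs carrying a *GFP* transgene. *Dbx2* encodes a homeodomain transcription factor.

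The circadian clock is a transcriptional feedback loop that runs in most mammalian cells. CLOCK and BMAL1 bind E-box sequences and activate the *Per*, *Cry*, *Nr1d* and *Dbp* genes, PER and CRY proteins then inhibit CLOCK and BMAL1, and the REV-ERB receptors encoded by *Nr1d1* and *Nr1d2* repress *Arntl*. DBP carries the rhythm to genes with D-box sequences, and the levels of most of these mRNAs change over the day in tissues and in synchronised cultures.

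The 16 RNA samples came from non-adherent cultures of proliferating NSPCs derived from the subventricular zone (SVZ) of C57BL/6J/Babr mice of 3 months of age. The 8 *GFP*-NSPC samples carried the *pTP6-hrGFP* plasmid and the 8 *Dbx2*-NSPC samples the *pTP6-Dbx2* plasmid, both introduced by nucleofection, kept under puromycin selection in bulk culture and expressed constitutively, in medium with EGF and FGF2. The study used 2 pairs of lines from independent derivations. The labels give no line, only replicate numbers 1 to 8 in each group. For this reason the samples numbered 1 to 4 and those numbered 5 to 8 were also compared apart. With 2 lines per transgene, differences between lines cannot be told apart from the transgene. Nor do the labels say that samples of the same number belong together, so counts by number describe direction only. The labels and methods give no time of day, medium change or synchronisation for the harvest, so the phase of the clock and the transgene cannot be told apart in any value below. Libraries were made with QuantSeq, which reads the 3′ end of polyadenylated transcripts, and values are CPM, the read count of a gene scaled to the library total. Each *GFP*-NSPC library held 1804660 to 3260284 reads and each *Dbx2*-NSPC library 2215074 to 3294873. A level of 3 reads, taken as the lowest told apart from 0, was 0.911 to 1.66 CPM, and it covers counting error only. The lowest value of a clock gene in any sample was 8 reads (*Per2*), so none of the 10 was at this floor in any sample.

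*Dbx2* itself was used as a check of the labels. Its level was 30.7 to 171 CPM in *GFP*-NSPCs (median 64.4) and 114 to 232 CPM in *Dbx2*-NSPCs (median 147), and it was higher in *Dbx2*-NSPCs at every one of the 8 replicate numbers. The groups overlapped over all samples and among the samples numbered 1 to 4, where *GFP*-NSPCs reached 89.3 to 171 CPM, and were apart among those numbered 5 to 8, where *GFP*-NSPCs reached 30.7 to 39.5 CPM. Its log2 fold change was 1.26 over all samples (SE 0.317, limma adjusted p = 0.00978) and 1.99 among the samples numbered 5 to 8 (limma adjusted p = 5.67e-08). Among those numbered 1 to 4 it did not pass the test (0.54, limma adjusted p = 0.0891), and *GFP*-NSPC replicate 1 (171 CPM) stood above *Dbx2*-NSPC replicates 2, 3 and 4 (136 to 168 CPM). Reads from the plasmid and from the endogenous gene cannot be told apart in this table. The labelled cell type was checked with 8 NSPC markers, all of them detected in every sample, whose sum ran from 5546 to 7117 CPM in *GFP*-NSPCs and from 4313 to 5939 CPM in *Dbx2*-NSPCs, with *Vim* the most abundant.

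The E-box and D-box through which the loop works can be seen in promoter sequence. RefSeq start sites on GRCm38.p6 gave windows of the 250 bases before the start for 9 of the 10 genes, 13 windows in all. Both strands were searched for the E-box CACGTG, the E′-box CACGTT, the D-box TTATGTAA, the cAMP response element TGACGTCA and the REV-ERB and ROR receptor motif AGGTCA, and 7 of the windows held at least 1 match. Over all 32851 RefSeq windows of this length, the E-box was present in 6.02%, the E′-box in 3.85%, the D-box in 0.819%, the cAMP response element in 1.55% and the receptor motif in 14.02%. A short motif of this kind can be present by composition alone, which was not tested, so a match is a description of the sequence and not a bound site. The 4 windows shown are those of the genes whose windows held an E-box, an E′-box near the start or a D-box, each given 5′ to 3′ on the strand of its gene with the matches in capitals. They are *Per1* at chr11:69098699-69098948 (plus strand), *Cry1* at chr10:85185055-85185304 (minus strand), *Per3* at chr4:151044666-151044915 (minus strand) and *Nr1d1* at chr11:98775378-98775627 (minus strand).
Per1: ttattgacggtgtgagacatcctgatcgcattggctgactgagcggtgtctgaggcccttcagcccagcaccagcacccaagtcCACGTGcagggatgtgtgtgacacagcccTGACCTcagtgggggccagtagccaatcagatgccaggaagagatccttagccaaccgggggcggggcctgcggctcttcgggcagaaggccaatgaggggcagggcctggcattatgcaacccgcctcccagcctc
Cry1: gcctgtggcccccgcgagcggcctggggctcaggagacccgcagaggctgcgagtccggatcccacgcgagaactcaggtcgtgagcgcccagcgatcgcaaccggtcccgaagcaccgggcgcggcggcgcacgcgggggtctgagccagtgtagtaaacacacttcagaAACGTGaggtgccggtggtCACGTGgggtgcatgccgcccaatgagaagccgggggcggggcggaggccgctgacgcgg
Per3: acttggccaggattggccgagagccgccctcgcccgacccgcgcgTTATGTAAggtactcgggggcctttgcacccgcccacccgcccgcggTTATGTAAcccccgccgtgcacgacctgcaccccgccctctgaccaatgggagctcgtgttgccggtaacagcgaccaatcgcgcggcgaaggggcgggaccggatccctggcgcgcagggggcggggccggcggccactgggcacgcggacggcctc
Nr1d1: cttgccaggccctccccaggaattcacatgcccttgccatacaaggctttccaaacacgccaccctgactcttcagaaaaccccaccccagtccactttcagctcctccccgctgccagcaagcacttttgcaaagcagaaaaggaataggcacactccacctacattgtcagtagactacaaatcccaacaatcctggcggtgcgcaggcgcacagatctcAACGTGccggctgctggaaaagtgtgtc
In *Per1* the E-box lay 166 to 161 bases before the start and TGACCT, the receptor motif on the other strand, 137 to 132 bases before it. In *Cry1* the E-box lay 60 to 55 bases before the start, with AACGTG, the E′-box on the other strand, 79 to 74 bases before it. *Per3* held 2 copies of the D-box, at 205 to 198 and at 158 to 151 bases before the start. *Nr1d1* held an E′-box match 28 to 23 bases before the start. *Cry2* had an E′-box match too, *Nr1d2* and the third *Clock* window a receptor motif match, and the *Arntl* and *Dbp* windows none of these letters.

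Over all 16 samples, 4 of the 10 clock genes differed between *Dbx2*-NSPCs and *GFP*-NSPCs, with *Cry1*, *Per1* and *Clock* lower and *Per2* higher in *Dbx2*-NSPCs. The test was limma on log2(CPM + 0.5), with p-values adjusted over the 12533 genes and 0.05 as the threshold. Of all tested genes 15.8% passed it, 8.03% as higher and 7.78% as lower, against which the 1 higher and 3 lower clock genes can be read. With the set of replicate numbers (1 to 4 or 5 to 8) as a covariate 24.2% of all tested genes passed, and the same 4 clock genes did. The ranges of the groups overlapped for all 10 clock genes, while 3.41% of all tested genes had ranges that did not overlap. The median log2 fold change was 0.27 over the 10 clock genes and -0.02 over all tested genes. The largest changes of the 10 were 1.79-fold, in *Per1* and *Per2*, in opposite directions. A lower level in a bulk sample can reflect fewer cells that express a gene or less RNA per cell, which cannot be told apart here.

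**Figure D1:**
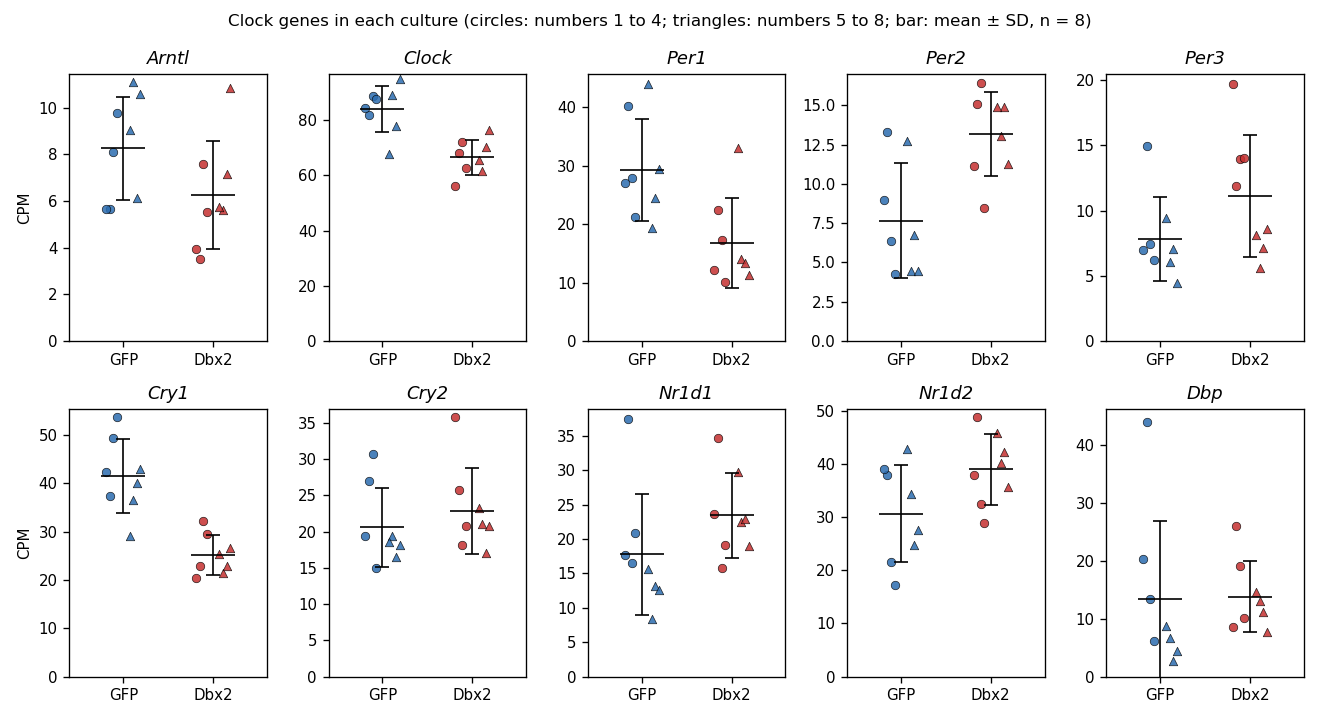
CPM of the 10 clock genes (y axis, linear, from 0) in *GFP*-NSPCs (blue) and *Dbx2*-NSPCs (red), one point per sample, with circles for samples numbered 1 to 4, triangles for 5 to 8, and bars for mean ± SD over 8 samples (the bar of *Dbp* in *GFP*-NSPCs reaches below the axis). *Cry1*, *Clock* and *Per1* sit lower and *Per2* sits higher in *Dbx2*-NSPCs, with the ranges of every gene overlapping.

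Of the activators, *Clock*, the gene of the partner of BMAL1, was lower in *Dbx2*-NSPCs. It lies at chr5:76209868-76304792 on the minus strand, and gene positions here are those of GENCODE on GRCm38. It ranged from 67.9 to 94.9 CPM (median 86.0) in *GFP*-NSPCs and from 56.3 to 76.3 CPM (median 66.8) in *Dbx2*-NSPCs. The *Dbx2*-NSPC samples fell below the *GFP*-NSPC sample of the same number in 8 of 8 cases, and only *GFP*-NSPC replicate 8 reached down into the *Dbx2*-NSPC range. The means were 84.1 ± 8.34 and 66.6 ± 6.39 CPM (SD, n = 8 each), with a log2 fold change of -0.33 (SE 0.0847, limma adjusted p = 0.0106, exact permutation p = 0.00109). *Arntl*, the gene of BMAL1 itself (chr7:113207465-113314126, plus strand), rested on 11 to 31 reads per sample. Its level was 5.64 to 11.1 CPM (median 8.58) in *GFP*-NSPCs and 3.53 to 10.8 CPM (median 5.69) in *Dbx2*-NSPCs, where replicate 7 stood above the other samples of its group. The log2 fold change of -0.40 did not pass the test (95% interval -0.87 to 0.06, limma adjusted p = 0.244).

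The 3 Period genes, which encode the inhibitors that partner with CRY proteins, did not move together. *Per1* (chr11:69095217-69109960, plus strand) was 19.4 to 44.0 CPM (median 27.4) in *GFP*-NSPCs and 10.1 to 33.1 CPM (median 13.7) in *Dbx2*-NSPCs. Replicates 8 and 1 were the highest of both groups, and *Dbx2*-NSPC replicate 8 alone exceeded most *GFP*-NSPC samples. On the log2 scale *Per1* fell by 0.84 (SE 0.225, limma adjusted p = 0.0150, exact permutation p = 0.00559), and it was lower at 8 of 8 numbers.

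*Per2* (chr1:91415982-91459324, minus strand) went the other way. Its level was 4.24 to 13.3 CPM (median 6.55) in *GFP*-NSPCs and 8.47 to 16.4 CPM (median 13.9) in *Dbx2*-NSPCs. *GFP*-NSPC replicates 1 and 8, again the highest of their group, reached into the *Dbx2*-NSPC range, as did replicate 4. On the log2 scale *Per2* rose by 0.84 (SE 0.240, limma adjusted p = 0.0221, exact permutation p = 0.00637), higher at 8 of 8 numbers. *Per3* (chr4:151003652-151044665, minus strand), with 4.44 to 14.9 CPM in *GFP*-NSPCs and 5.63 to 19.7 CPM in *Dbx2*-NSPCs, had a log2 fold change of 0.46 that did not pass the test (95% interval -0.07 to 0.99, limma adjusted p = 0.244).

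The opposite shifts of *Per1* and *Per2* show in their ratio within a sample, a quantity that does not depend on the library total and was chosen after the values had been seen, so it is given without a test. CPM of *Per1* over CPM of *Per2* ran from 3.00 to 6.61 (median 4.01) in *GFP*-NSPCs and from 0.896 to 2.23 (median 1.09) in *Dbx2*-NSPCs. No *Dbx2*-NSPC sample reached the lowest *GFP*-NSPC sample. In *Dbx2*-NSPCs the ratio was highest in replicates 8 and 1, the samples with the most *Per1*. The ratio is one of read shares and not of molecules.

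**Figure D2:**
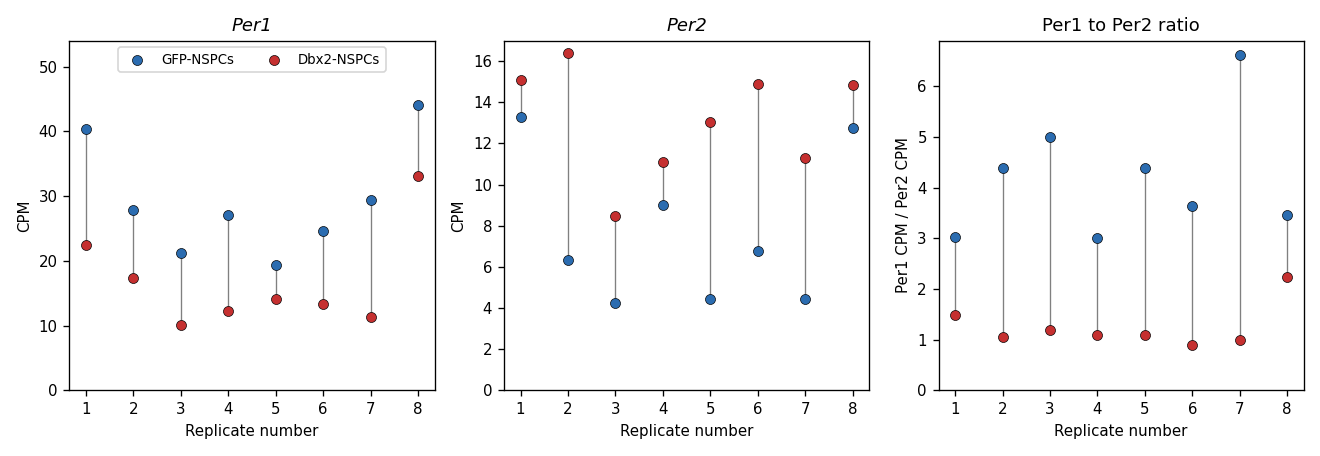
*Per1* CPM, *Per2* CPM and their ratio (y axes, linear, from 0) by replicate number, with *GFP*-NSPCs in blue, *Dbx2*-NSPCs in red and grey lines between samples of the same number. *Per1* is lower and *Per2* higher in *Dbx2*-NSPCs at every number, and the ratio stays at or above 3.00 in *GFP*-NSPCs and at or below 2.23 in *Dbx2*-NSPCs.

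Of the cryptochromes, the CLOCK and BMAL1 inhibitors that act with PER proteins, *Cry1* (chr10:85131700-85185064, minus strand) had the lowest adjusted p of the 10 genes. It ranged from 29.2 to 53.8 CPM (median 41.2) in *GFP*-NSPCs and from 20.4 to 32.2 CPM (median 24.2) in *Dbx2*-NSPCs. A single *GFP*-NSPC sample, replicate 8, lay within the *Dbx2*-NSPC range, below *Dbx2*-NSPC replicates 2 and 3. The means were 41.5 ± 7.64 and 25.2 ± 4.10 CPM (SD, n = 8 each), a level 1.63-fold lower in *Dbx2*-NSPCs (log2 fold change -0.70, SE 0.129, limma adjusted p = 0.000834, exact permutation p = 0.000466).

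*Cry2* (chr2:92403646-92434043, minus strand) did not pass the test, with 15.0 to 30.7 CPM (median 18.9) in *GFP*-NSPCs and 17.1 to 35.9 CPM (median 21.0) in *Dbx2*-NSPCs. *Dbx2*-NSPC replicate 4 stood apart as the highest sample. The log2 fold change was 0.15 (95% interval -0.20 to 0.50, limma adjusted p = 0.595), an interval that does not reach the -0.70 estimated for *Cry1*. The ratio of *Cry1* to *Cry2* CPM, also looked at after the values had been seen, was 1.39 to 3.59 (median 2.04) in *GFP*-NSPCs and 0.570 to 1.77 (median 1.18) in *Dbx2*-NSPCs, and these ranges overlapped.

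*Nr1d1* and *Nr1d2*, the REV-ERB receptors that repress *Arntl*, did not pass the test over all samples, and both had higher means in *Dbx2*-NSPCs. *Nr1d1* (chr11:98767932-98775333, minus strand) was 8.31 to 37.5 CPM (median 16.1) in *GFP*-NSPCs and 15.8 to 34.7 CPM (median 22.8) in *Dbx2*-NSPCs. Replicate 1 was the highest sample of both groups, and *GFP*-NSPC replicate 1 stood far above the other 7 of its group, of which the next was 20.9 CPM. The log2 fold change was 0.47 (95% interval -0.01 to 0.95, limma adjusted p = 0.186) with all samples and 0.64 (limma adjusted p = 0.0288) without *GFP*-NSPC replicate 1. Of 28 alternatives, *Nr1d1* passed only in this 1. *Nr1d2* (chr14:18204054-18239127, minus strand) was 17.3 to 42.8 CPM (median 31.0) in *GFP*-NSPCs and 29.0 to 48.8 CPM (median 39.1) in *Dbx2*-NSPCs, higher at 7 of 8 numbers. Its log2 fold change of 0.38 (95% interval 0.02 to 0.75) had a limma adjusted p of 0.144, or 0.0270 when blocked by replicate number. The block was the only 1 of 28 alternatives in which *Nr1d2* passed, and 21.7% of all tested genes passed under it.

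*Dbp*, the D-box activator read as an output of the loop (chr7:45705088-45710203, plus strand), was the most variable of the 10 genes in *GFP*-NSPCs. It ranged from 2.76 to 43.9 CPM (median 7.64) in *GFP*-NSPCs and from 7.67 to 26.01 CPM (median 12.1) in *Dbx2*-NSPCs, with coefficients of variation of 102% and 44.5%. Replicate 1 was the highest of both groups, and the group means were nearly equal at 13.3 and 13.8 CPM. The log2 fold change was 0.43 (95% interval -0.44 to 1.30, limma adjusted p = 0.540). It was 0.74 without *GFP*-NSPC replicate 1, 0.20 without *GFP*-NSPC replicate 6 and 0.071 with DESeq2 on the recovered reads, and passed under none of 28 alternatives. *GFP*-NSPC replicate 1, the sample high for *Nr1d1* and *Dbp*, was also the highest of its group for *Per2*, *Per3* and *Dbx2* and for the sum of 5 astrocyte markers (848 CPM, against 263 to 658 CPM in the other 7). The part of these in its *Nr1d1* and *Dbp* values was not tested.

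The comparison was then made within each set of replicate numbers. Among the samples numbered 1 to 4, 3 of the 10 genes passed the test, all lower in *Dbx2*-NSPCs, against 15.6% of all tested genes (8.19% as higher and 7.37% as lower). These were *Cry1* (log2 fold change -0.80, limma adjusted p = 0.0101), *Clock* (-0.41, adjusted p = 0.0252) and *Per1* (-0.91, adjusted p = 0.0352). The 4 samples of each group did not overlap for *Clock* and *Cry1*, which is also the case for 19.6% of all tested genes at this sample size. *Cry1* passed whichever sample was left out. *Clock* did not pass without *GFP*-NSPC replicate 2, 3 or 4 or *Dbx2*-NSPC replicate 3 (limma adjusted p 0.0604 to 0.0742), nor *Per1* with every gene above 0 tested (limma adjusted p = 0.125) or without *GFP*-NSPC replicate 1, 2 or 4 or *Dbx2*-NSPC replicate 2, 3 or 4 (limma adjusted p 0.0532 to 0.106). *Per3* was 11.9 to 19.7 CPM in the 4 *Dbx2*-NSPC samples, and 14.9 CPM in *GFP*-NSPC replicate 1 and 6.19 to 7.41 CPM in the other *GFP*-NSPC samples, so that only *GFP*-NSPC replicate 1 reached the *Dbx2*-NSPC range. Its log2 fold change was 0.78 (limma adjusted p = 0.0925), and 1.04 (limma adjusted p = 0.0122) without that sample. Of 18 alternatives, *Per3* passed only in this 1.

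Among the samples numbered 5 to 8, 4 of the 10 genes passed, against 23.2% of all tested genes (11.5% as higher and 11.7% as lower). *Cry1* was lower (log2 fold change -0.61, limma adjusted p = 0.00926), while *Nr1d1* (0.91, adjusted p = 0.00718), *Per2* (1.003, adjusted p = 0.0284) and *Dbp* (1.05, adjusted p = 0.0324) were higher in *Dbx2*-NSPCs. *Nr1d1* was 8.31, 13.2, 12.6 and 15.6 CPM in *GFP*-NSPCs and 22.5, 23.0, 19.0 and 29.7 CPM in *Dbx2*-NSPCs. The groups did not overlap for *Nr1d1* and *Cry1*, as for 24.8% of all tested genes, and both genes passed whichever sample was left out. *Dbp* was 6.65, 2.76, 4.44 and 8.64 CPM in *GFP*-NSPCs and 13.02, 11.2, 7.67 and 14.5 CPM in *Dbx2*-NSPCs, with only *Dbx2*-NSPC replicate 7 inside the *GFP*-NSPC range. *Dbp* did not pass without *GFP*-NSPC replicate 6 or 7 or *Dbx2*-NSPC replicate 5, 6 or 8 (limma adjusted p 0.0678 to 0.0964). *Per2* did not pass without *GFP*-NSPC replicate 5, 6 or 7 or *Dbx2*-NSPC replicate 5, 6 or 8 (limma adjusted p 0.0578 to 0.0877).

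Other genes passed in this set only under another setting. *Per1* fell by 0.76 on the log2 scale (limma adjusted p = 0.0938, or 0.0131 when blocked by replicate number). With edgeR on the recovered reads its adjusted p was 0.0421, and with genes of at least 2 CPM on average tested its limma adjusted p was 0.0478. Without *Dbx2*-NSPC replicate 8, the sample with 33.1 CPM, its log2 fold change was -1.09 (limma adjusted p = 0.00750). Without *GFP*-NSPC replicate 8, *Clock* (-0.35, limma adjusted p = 0.0420) and *Nr1d2* (0.50, limma adjusted p = 0.0333) passed as well.

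**Figure D3:**
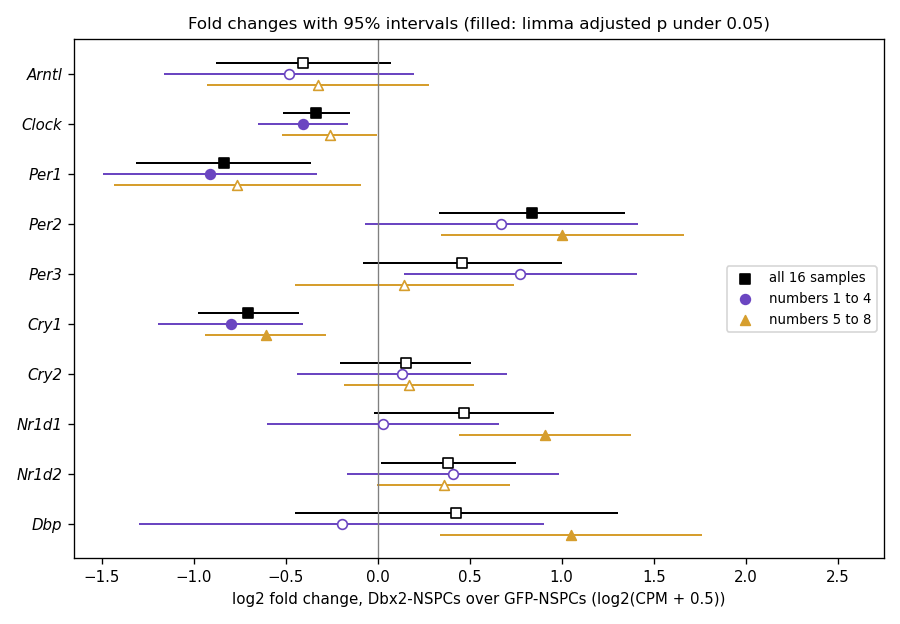
Log2 fold change of each clock gene, *Dbx2*-NSPCs over *GFP*-NSPCs, on the log2(CPM + 0.5) scale (x axis), with 95% intervals, over all 16 samples (black squares), samples numbered 1 to 4 (purple circles) and samples numbered 5 to 8 (yellow triangles), filled where the limma adjusted p is under 0.05. *Cry1* is filled in all 3 comparisons.

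The sets hold different samples of both groups. For *Clock*, *Per1*, *Cry1* (all lower) and *Per2* (higher), *Dbx2*-NSPCs differed in 1 direction at all 8 replicate numbers, which was so for 14.3% of all tested genes. Whether the difference itself differed between the sets was tested by an interaction term in a model of the 4 group means. None of the 10 genes passed with limma, edgeR or DESeq2, against 9.44% of all tested genes with limma (4.4% with a larger and 5.04% with a smaller value in the samples numbered 5 to 8), and 1, *Nr1d1*, had an unadjusted p under 0.05. Its log2 fold change was larger by 0.88 in the samples numbered 5 to 8 (95% interval 0.13 to 1.63, unadjusted p = 0.0232, limma adjusted p = 0.145). That term had a limma adjusted p of 0.0393 when blocked by replicate number and of 0.0497 without *Dbx2*-NSPC replicate 1. For *Dbp* the term was 1.25 (95% interval -0.0026 to 2.49, limma adjusted p = 0.233), so a set-specific difference was not resolved. With single samples left out the *Dbp* term ranged from 0.79 to 1.70 and never passed.

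Genes around the core loop were taken from lists of clock factors, 61 genes apart from the 10, of which 58 passed the filter. Over all samples 4 of them were higher and 7 lower in *Dbx2*-NSPCs, with a median log2 fold change of -0.15, beside 8.03% of all tested genes called as higher and 7.78% as lower. Within the sets, 4 were higher and 5 lower among the samples numbered 1 to 4 (8.19% and 7.37% of all tested genes), and 7 higher and 12 lower among those numbered 5 to 8 (11.5% and 11.7% of all tested genes).

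Of 10 other tested transcription factors of the loop, 2 were higher in *Dbx2*-NSPCs over all samples, *Tef* and *Bhlhe40*, beside 8.03% of all tested genes. *Tef*, a relative of *Dbp* that binds the same D-box, was 81.5 to 178 CPM (median 111) in *GFP*-NSPCs and 137 to 210 CPM (median 188) in *Dbx2*-NSPCs. It was higher at 8 of 8 numbers (log2 fold change 0.65, SE 0.137, limma adjusted p = 0.00263). *Bhlhe40*, an E-box repressor, was 7.76 to 56.4 CPM (median 23.6) in *GFP*-NSPCs and 34.5 to 73.5 CPM (median 44.2) in *Dbx2*-NSPCs (log2 fold change 1.15, SE 0.321, limma adjusted p = 0.0189). Over all samples both genes were called under all 28 alternatives, which were run for them over all samples only. Both passed the limma test in the samples numbered 5 to 8, but not in those numbered 1 to 4 (limma adjusted p = 0.181 for *Tef* and 0.0728 for *Bhlhe40*). The difference between the sets passed for *Bhlhe40* (limma adjusted p = 0.0137) but not for *Tef* (0.351), which rose in both (0.45 and 0.85). *Bhlhe41*, a relative of *Bhlhe40*, was higher in the samples numbered 5 to 8 (1.28, limma adjusted p = 0.00268) and did not pass over all samples (0.63, limma adjusted p = 0.309). *Hlf*, the third D-box activator, was lower only by the test in the samples numbered 1 to 4 (-0.76, limma adjusted p = 0.00832). *Arntl2* was higher there (1.39, limma adjusted p = 0.0276) at 0.33 to 3.64 CPM, partly under the floor. *Rorb*, an activator of *Arntl*, was higher in those numbered 5 to 8 (0.54, limma adjusted p = 0.0221). The difference between the sets did not pass for *Arntl2* (limma adjusted p = 0.134) or *Rorb* (0.156). *Rora*, *Nfil3*, *Ciart* and *Cipc* did not pass in any of the comparisons.

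Among 16 cofactors of the clock complexes, 5 were lower over all samples, beside 7.78% of all tested genes. *Timeless*, which encodes a replication fork protein that also interacts with clock proteins, had the largest change of them. It ranged from 59.6 to 119 CPM (median 90.3) in *GFP*-NSPCs and from 29.9 to 61.8 CPM (median 45.0) in *Dbx2*-NSPCs. Its log2 fold change was -0.998 (SE 0.146, limma adjusted p = 9.61e-05), and it was called in both sets. Its fork partner *Tipin* (-0.33), the ribosomal scaffold gene *Rack1* (-0.25), the splicing factor gene *Sfpq* (-0.26) and the histone methyltransferase subunit gene *Wdr5* (-0.45) were lower by less. Of 28 alternatives, *Tipin* was called in 12, *Wdr5* in 7, *Sfpq* in 23 and *Rack1* in 27. Among the samples numbered 5 to 8, *Sirt1*, the gene of a deacetylase of clock proteins, was lower (-0.87, limma adjusted p = 0.00280), and so were *Prmt5* (-0.47), *Kdm5a* (-0.29), *Nono* (-0.26) and *Ddx5* (-0.22), while *Kmt2a* was higher (0.39) in those numbered 1 to 4. The abundant corepressor and coactivator genes *Ncor1*, *Crebbp* and *Thrap3* did not pass in either set. The difference between the sets passed for 0 of the 16 cofactors, beside 9.44% of all tested genes. Of 15 tested kinase and protein turnover genes, which include the casein kinases that phosphorylate PER proteins, the lowest limma adjusted p over all samples was 0.0607 (*Csnk2a2*). Among the samples numbered 5 to 8, *Csnk1d* was higher (0.41, limma adjusted p = 0.00144) and *Csnk1e* (-0.24, adjusted p = 0.0295) and *Csnk2a2* (-0.32, adjusted p = 0.0220) were lower, 3 of 15 beside 23.2% of all tested genes. *Gsk3b*, *Csnk1a1* and *Csnk2a1*, the most abundant of this list, did not pass.

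Of the 12 genes on the cAMP and glucocorticoid routes that can reset the clock, 1 was higher and 2 were lower over all samples. Of all tested genes 8.03% were called as higher and 7.78% as lower. *Creb1*, the gene of a transcription factor that activates *Per1*, was lower. It was 89.8 to 131 CPM (median 118) in *GFP*-NSPCs and 64.9 to 98.2 CPM (median 84.4) in *Dbx2*-NSPCs (log2 fold change -0.48, SE 0.0956, limma adjusted p = 0.00161). The glucocorticoid targets *Tsc22d3* (-0.54, limma adjusted p = 0.0325) and *Sgk1* (0.67, limma adjusted p = 0.0255) moved in opposite directions, each losing its call without some single samples. *Nr3c1*, the glucocorticoid receptor gene, did not pass (0.06), nor did *Fkbp5*, *Dusp1* or *Zbtb16*, and *Klf9* was higher in the samples numbered 5 to 8 alone by the test (0.30, limma adjusted p = 0.0411). The difference between the sets passed for 0 of these 12 genes, beside 9.44% of all tested genes. Of the 9 genes listed as outputs of the clock, 2 were higher and 1 was lower over all samples, beside the same 8.03% and 7.78%. Among them the cell cycle inhibitor gene *Cdkn1a* was higher (1.14, SE 0.314, limma adjusted p = 0.0178), at 364 to 1867 CPM in *GFP*-NSPCs and 1522 to 2651 CPM in *Dbx2*-NSPCs, while *Wee1*, *Nampt*, *Por* and *Noct* did not pass.

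**Figure D4:**
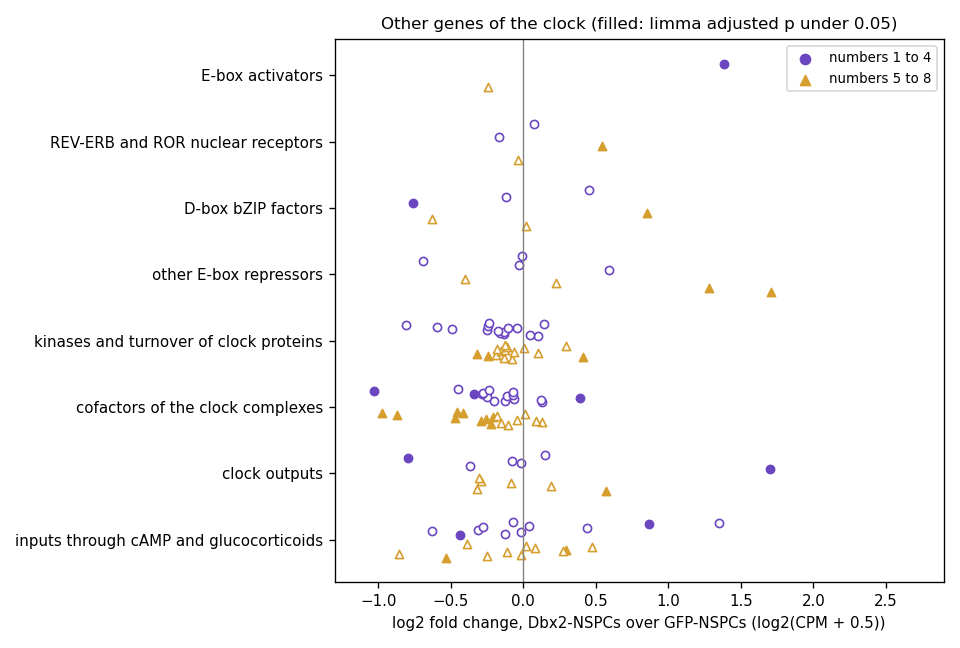
Log2 fold change, *Dbx2*-NSPCs over *GFP*-NSPCs, on the log2(CPM + 0.5) scale (x axis), of the tested genes around the core loop by list (y axis), for samples numbered 1 to 4 (purple circles) and 5 to 8 (yellow triangles), filled where the limma adjusted p is under 0.05. A gene of more than 1 list is drawn once. Among the cofactors 9 of 16 are filled as lower in the samples numbered 5 to 8, beside 11.7% of all tested genes. In those numbered 1 to 4, 2 are filled as lower and 1 as higher, beside 7.37% and 8.19% of all tested genes.

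Other genes moved with the same contrast. Of 15 proliferation genes, 6 were lower over all samples (*Cdk2*, *Cdk4*, *Ccnb1*, *Ccna2*, *Mcm4* and *Mcm7*, from -0.83 to -0.35), and 1 was higher (*Ccnd1*, 0.27), beside 7.78% of all tested genes called as lower and 8.03% as higher. Of the 8 NSPC markers, 4 were lower (*Slc1a3*, *Fabp7*, *Egfr* and *Pax6*), against the same 7.78%. Of the 5 astrocyte markers, *Gfap* was higher (3.31) and *Gja1* (-4.13) and *Aldh1l1* (-1.20) were lower, against the same 8.03% and 7.78%. The sum of the astrocyte markers was 263 to 848 CPM in *GFP*-NSPCs and 220 to 588 CPM in *Dbx2*-NSPCs, with *Slc1a2* the most abundant in 10 samples and *Aldh1l1* in the other 6, and with *Gja1* at 0 in 2 *Dbx2*-NSPC samples. The part of these shifts in the clock gene values was not tested. Summed markers of microglia reached at most 1.96 CPM, and those of endothelium 8.08 CPM and of mural cells 5.14 CPM, with *Aif1*, *Csf1r*, *Cldn5*, *Pdgfrb* and *Rgs5* at or under the floor in every sample. The 1 tested mural marker was higher among the samples numbered 1 to 4 (log2 fold change 2.72), beside 8.19% of all tested genes. It did not pass among those numbered 5 to 8 (-0.22), and its difference between the sets passed (-2.94), beside 9.44% of all tested genes. The mural markers together reached at most 0.7 CPM in *GFP*-NSPCs, which is under the floor in every sample. Their sum was 2.16 to 5.14 CPM in *Dbx2*-NSPC replicates 1 to 4 and at most 0.7 CPM in replicates 5 to 8. The sizes of these log2 fold changes thus depend on the pseudocount. The 5 markers of the oligodendrocyte lineage summed to 1077 to 1765 CPM, nearly all *Olig2*, with *Sox10* at or under the floor and none of the 3 tested called. Neuroblast and neuron markers summed to 11.7 to 40.2 CPM, led by *Tubb3*, with *Stmn2* at or under the floor. Of their 4 tested markers, 3 were lower among the samples numbered 1 to 4 (7.37% of all tested genes) and 2 higher among those numbered 5 to 8 (11.5% of all tested genes). For 2 the difference between the sets passed, beside 9.44% of all tested genes. *Tubb3* was 10.62 of 11.84 CPM in *Dbx2*-NSPC replicate 2 and 13.3 of 13.85 CPM in *GFP*-NSPC replicate 5. The other markers were thus at or near the floor in these samples. Sums for ependyma were 9.56 to 34.7 CPM, led by *Foxj1*, with *Tmem212* at or under the floor. *Ccdc153* was higher in *Dbx2*-NSPCs over all samples (1.75), beside 8.03% of all tested genes. It was low in *GFP*-NSPCs, where *Foxj1* was 18.53 of the 21.35 CPM of replicate 1 and all 9.56 CPM of replicate 7. Neither of the 2 tested ependyma markers passed among the samples numbered 5 to 8.

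Some reads could belong to neighbours. In the GENCODE annotation of GRCm38, *Nr1d1* shares 1075 bases at its 3′ end with *Thra* on the opposite strand, and *Dbp* shares 737 bases with *Sphk2* on the opposite strand. The strand used in counting is not given in the sources used here, so a read there could be assigned to either gene. *Thra*, the gene of a thyroid hormone receptor, had 183 to 338 CPM, with log2 fold changes of 0.24 over all samples (limma adjusted p = 0.0886) and 0.37 in those numbered 5 to 8 (adjusted p = 0.0382), where *Nr1d1* was higher. *Sphk2* changed by 0.22 on the log2 scale without passing the test (limma adjusted p = 0.297). *Cry2* and *Arntl* also share exon sequence with opposite-strand transcripts, of which *Gm45355*, at *Arntl*, was at 0 in every sample, and *Per3* lies within *Camta1* with no shared exon.

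Genes that varied most like the 4 called clock genes were looked for after each of the 4 means of transgene and set had been subtracted, over 16 samples and the 8650 other genes that averaged 10 CPM or more. The highest Pearson correlations were 0.863 with *Zfp111* for *Clock*, 0.849 with *Ptgr2* for *Per1*, 0.893 with *Asap1* for *Per2* and 0.851 with *Skp1a* for *Cry1*. *Usp19* and *2410004B18Rik* followed for *Clock*, *Ttc7b* and *Sdc1* for *Per1*, *Pde4b* and *Sertad1* for *Per2*, and *Spice1* and *Uhrf1bp1* for *Cry1*. The genes of a sample share its library and depth, so these values only describe likeness over 16 points. Each value is the highest of 8650 correlations, and subtracting 4 means leaves fewer than 16 independent points. Picking the highest of so many can by itself give large values, and none was tested.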

How the data were processed

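RNA of 16 samples was sequenced, 8 per transgene, from cultures of 4 to 6 days. The authors trimmed the reads, aligned them to GRCm38 with STAR 2.5.0a and deposited CPM for 30386 genes, the columns of which were all used (0 left out). The counting tool and strand are not given in the sources used here. Of the values above 0, 100.0% were whole reads within 0.006 CPM, which gave the library totals. The p-values measure only the spread between these cultures. These came from 2 lines per transgene and were treated as 8 independent samples per group.

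Genes above 1 CPM in at least 4 samples (12533) were tested on log2(CPM + 0.5) with limma 3.58.1 (eBayes with trend, 2-sided) in R 4.3.3, with Benjamini-Hochberg adjustment over all of them, and with exact permutation tests over all 12870 splits. The study's cell line covariate is not in the labels and was not fitted. The alternatives tried were 0.1 and 2 as pseudocount, a looser and a stricter filter, quantile and median-of-ratios scaling, no intensity trend, set and replicate block terms, leaving out each sample, and edgeR 4.0.16 and DESeq2 1.42.0 on recovered reads. Scripts were tested on simulated data. Same-numbered samples deviated together from their transgene means (every r at least 0.152, mean 0.226), and a replicate block was fitted as an alternative, the values given otherwise being from fits without it. Other numbers of the same set correlated about as well (mean r 0.161 to 0.242), and from the 4 means of transgene and set the mean r of a number with itself was 0.0403. The clock genes and lists were chosen with earlier results of these data known. Named genes were the 10, *Dbx2*, listed genes that were called or most abundant, overlapping genes and the 3 most similar genes of each called clock gene.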

Additional observations from a re-analysis of the deposited data

Results flagged for a closer look

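In 4 of 22 groups of 8 samples examined, those of the clock genes and *Dbx2* in each transgene, a single sample lay far from the others. The criterion is set for chance to meet it in about 1 in 20 groups of independent, normally distributed values, and these groups share samples. *Nr1d1* (37.47 CPM) and *Dbp* (43.91 CPM) were high in *GFP*-NSPC replicate 1. *Cry2* (35.88 CPM) was high in *Dbx2*-NSPC replicate 4. *Dbx2* (232.13 CPM) was high in *Dbx2*-NSPC replicate 1.

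Of 69 genes examined for a different transgene effect in the samples numbered 1 to 4 and 5 to 8, 6 passed the interaction test in limma, beside 9.44% of all tested genes. *Dbx2* differed most clearly (adjusted p = 1.04e-04), with a log2 fold change of 0.54 in the samples numbered 1 to 4 and 1.99 in those numbered 5 to 8. *Bhlhe40* (0.59 and 1.71, adjusted p = 0.0137) and *Bhlhe41* (-0.03 and 1.28, adjusted p = 0.0344), the genes of E-box repressors, had larger log2 fold changes in those numbered 5 to 8, and so did *Csnk1d* (-0.13 and 0.41, adjusted p = 0.0127). *Hlf* was lower in the samples numbered 1 to 4 and near 0 in those numbered 5 to 8 (-0.76 and 0.02, adjusted p = 0.0280). *Cdkn1a* was higher in both sets, by more in those numbered 1 to 4 (1.70 and 0.57, adjusted p = 0.0191).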

How the results depend on the processing

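The number of clock genes called over all samples was 4 or 5 under every alternative, and *Cry1*, *Per1*, *Clock* and *Per2* were called in each of them. Among the samples numbered 1 to 4, the count of 3 fell to 1 (*Cry1*) with eBayes without trend and to 2 (*Cry1* and *Clock*, *Per1* having an adjusted p of 0.125 in limma) with every gene above 0 tested, and ranged from 1 to 3 when single samples were left out. Among those numbered 5 to 8, the count of 4 fell to 2 (*Cry1* and *Nr1d1*) with every gene above 0 tested and with eBayes without trend, and ranged from 2 to 6 when single samples were left out. The count of clock genes whose difference differed between the sets was 0, and 0 to 1 when single samples were left out.

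With the replicate block that count was 1 (*Nr1d1*, adjusted p = 0.0393 in limma), beside 10.4% of all tested genes; the block also added *Nr1d2* over all samples (adjusted p = 0.0270) and *Per1* in the samples numbered 5 to 8 (adjusted p = 0.0131), ended the call of *Wdr5* (adjusted p = 0.0529), and changed no other call of the genes recomputed. Under the check from the 4 means of transgene and set, 1 of 8 numbers correlated best with itself, against 4 of 8 from the transgene means alone.

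Log2 fold changes changed sign only when single samples were left out and only for values that had not passed the test. In the samples numbered 1 to 4 they ranged from -0.051 to 0.29 for *Cry2*, -0.18 to 0.28 for *Nr1d1* and -0.65 to 0.26 for *Dbp*, and in those numbered 5 to 8 from -0.026 to 0.31 for *Per3*. The differences between the sets ranged from -0.033 to 0.35 for *Arntl*, -0.18 to 0.36 for *Per1*, -0.12 to 0.22 for *Cry2* and -0.22 to 0.16 for *Nr1d2*. The cause was not tested. Over all genes, 1982 calls became 3034 with the set as covariate, and 1950 in the samples numbered 1 to 4 became 1299 with every gene above 0 tested and 1286 without *GFP*-NSPC replicate 3. *Tipin*, *Wdr5*, *Sfpq*, *Rack1*, *Sgk1* and *Tsc22d3* lost their calls under some alternatives.

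*Arntl*, *Per2*, *Per3* and *Dbp* rest on few reads in some samples (8 at the lowest, in *Per2*), and counting error was not separated from the spread between cultures. The harvest time and the line of each sample were not given in the labels.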
